A study of Mus musculus with 8 samples.

Results

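The genes described here are 9 Toll-like receptor genes, Tlr1 to Tlr9, and Cd14, in whole-kidney RNA of tacrolimus-treated and control mice. They were chosen by gene name: every non-control probe of the array that carries one of these 10 names was taken, which gave 14 probes out of 55681, and the array holds 34763 gene and transcript names in all. A probe is a DNA oligomer of 60 bases printed on the array, and its brightness reports the amount of the matching RNA. The TAC group was 4 kidney samples of CD-1 mice, which are outbred, given tacrolimus at 1 mg/kg/day for 28 days. Tacrolimus is an inhibitor of the phosphatase calcineurin that is used against transplant rejection and is known for its toxicity to the kidney. The CTL group was 4 kidney samples of CD-1 mice given physiological serum. All 8 samples were total RNA (0.2 ug, RIN 9) labelled with Cy3 and hybridised to 1 array each. The age and sex of the mice were not used. The labels number the samples without naming animals, so a p-value here weighs a difference against the spread of the arrays, which may be technical. Because the tissue is a mixture of cell types, more cells of a type and more RNA per cell cannot be told apart.

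Toll-like receptors are membrane proteins that recognise molecules of microbes and of damaged tissue. TLR2, which pairs with TLR1 or TLR6, TLR4 and TLR5 sit at the cell surface and bind lipoproteins, lipopolysaccharide and flagellin. TLR3, TLR7, TLR8 and TLR9 sit in endosomes and bind nucleic acids. CD14 is a co-receptor that hands lipopolysaccharide to TLR4 and its partner MD-2, and it also serves TLR2. The receptors signal through the adaptors MyD88 and TRIF to NF-kB and interferon regulatory factors. In the kidney they are known from tubular epithelium, endothelium and resident macrophages.

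A level is the log2 of a probe's signal after the 75th percentile of its array was subtracted on that scale, and each difference is TAC minus CTL in log2 units. A level serves to compare 1 probe between arrays, since probes differ in how brightly they bind. By the scanner's own test, 64.0% to 69.8% of spots per array cleared the background, no spot was saturated, and all 9 kidney epithelial markers looked at, among them Slc34a1 and Umod, were well above background on all 8 arrays. The arrays shared 1 slide and 1 scan, with the CTL arrays in row 1 and the TAC arrays in row 2, so row and treatment cannot be told apart. Around the spots, the background averaged 19.3 to 20.5 units of intensity in TAC and 21.8 to 22.1 in CTL. Markers of fat were also uneven: the summed linear level of 6 adipocyte markers was 11.0 to 45.0 on the TAC arrays, highest on TAC replicate 4, and 10.6 to 14.8 on the CTL arrays. Fabp4, a fatty acid binding protein, gave 61.4% to 99.6% of it, and without Fabp4 the sums were 1.17 to 17.4 in TAC and 0.0604 to 1.41 in CTL, highest on TAC replicate 4 and CTL replicate 2. TAC replicate 4 and CTL replicate 2 were also left out together, a choice made with earlier results for fat markers known.

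Tlr2 showed the widest difference of the family, and the receptors of the cell surface that work with it lay in the same direction. Of the 10 genes, 8 had a probe that cleared the background on 4 or more of the 8 arrays and were tested, and each of these 8 was well above background on all 8 arrays. None of the 8 passed an adjusted p under 0.05 in limma's linear model, where 57 of all 25124 genes tested (0.227%) did, 0.187% higher and 0.0398% lower in TAC. At an unadjusted p under 0.05, 5 of the 8 were higher in TAC (62.5%) and none was lower, against 7.04% and 8.42% of all genes tested (15.5% in either direction). The TAC arrays lay entirely above the CTL arrays for 3 of the 8, Tlr2, Tlr3 and Tlr4, against 4.35% of all genes, and entirely below for none, against 5.76% (10.1% either way). The difference was above 0 for 6 of the 8, against 39.5% of all genes. The median difference of the 8 genes was 0.57, against -0.05 over all genes tested. The members are few and not independent, so these shares describe them and were not tested as a set.

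**Figure D1:**
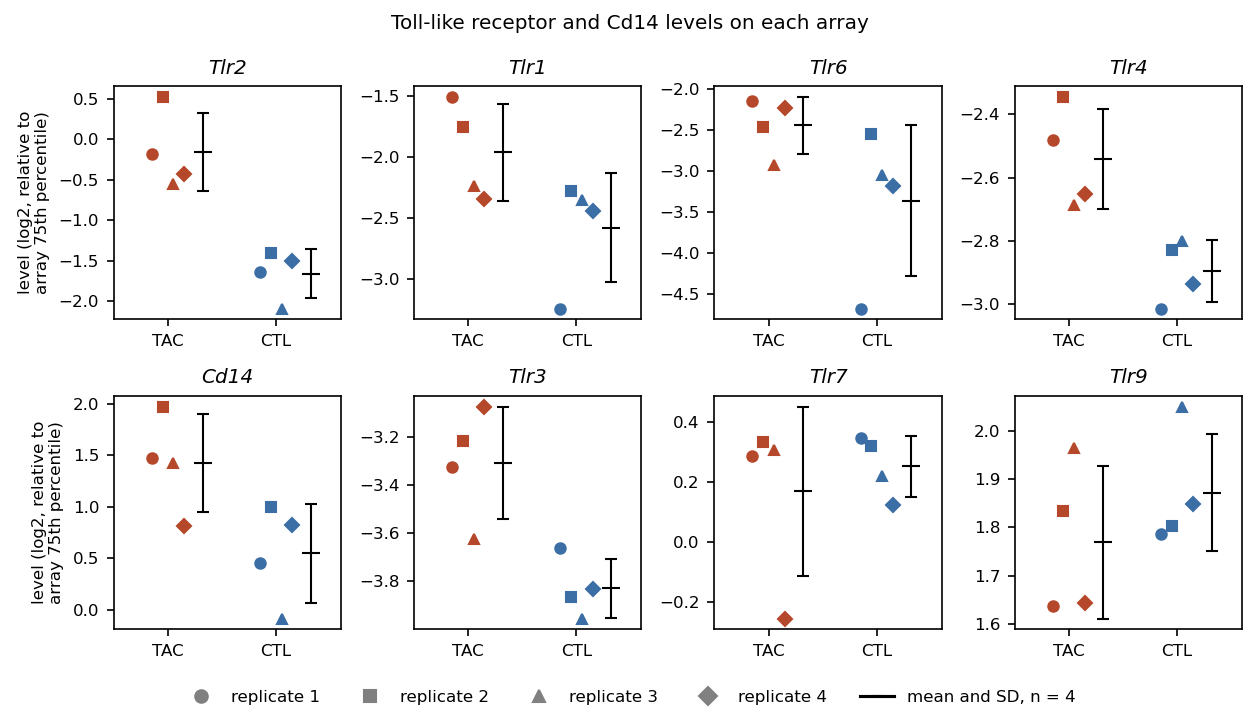
Level of each tested gene on each array (log2, relative to the array's 75th percentile), with TAC arrays left and CTL arrays right of each panel and the mean and SD of 4 arrays beside them; each panel has its own vertical axis. The TAC arrays lie entirely above the CTL arrays for Tlr2, Tlr3 and Tlr4 and overlap them in the other 5 panels.

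Tlr2 encodes the receptor for bacterial lipoproteins and for several matrix and damage products. Its level was -0.18, 0.53, -0.55 and -0.43 on TAC replicates 1 to 4, against -1.64, -1.40, -2.09 and -1.50 on CTL replicates 1 to 4. The lowest TAC array thus lay above the highest CTL array, and TAC replicate 2 stood highest. The means were -0.16 ± 0.48 in TAC and -1.66 ± 0.31 in CTL (SD, n = 4 each), a difference of 1.50 ± 0.25 (SE) or 2.83-fold, with a 95% interval of 1.90 to 4.21. The unadjusted p was 0.000279, the 124th smallest of 25124, and the adjusted p of 0.0553 (limma) missed the threshold of 0.05. Over the alternatives tried, the difference stayed between 1.27 and 1.68 and the adjusted p between 0.0296 and 0.145. Without TAC replicate 4 and CTL replicate 2 together the difference was 1.68. The probe is printed 10 times on the array, and the SD of these spots within an array was 0.04 to 0.08, below the SD between arrays of either group. It is annotated at chr3:83640344-83640403 on mm9, on the minus strand.

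The promoters of Tlr2 and Tlr3 are shown because these had the lowest p of the 8 tested genes and because both hold a match to the binding consensus of NF-kB, the kappa-B consensus. Promoters of 7 of the 10 genes were searched, from RefSeq on GRCm38.p6, as windows that lie mostly before an annotated start. No promoter of Tlr4, Tlr7 or Cd14 was searched, so the counts below do not speak for these genes. Capitals mark matches to the kappa-B consensus on either strand.
Tlr2, chr3:83841559-83841858, minus strand: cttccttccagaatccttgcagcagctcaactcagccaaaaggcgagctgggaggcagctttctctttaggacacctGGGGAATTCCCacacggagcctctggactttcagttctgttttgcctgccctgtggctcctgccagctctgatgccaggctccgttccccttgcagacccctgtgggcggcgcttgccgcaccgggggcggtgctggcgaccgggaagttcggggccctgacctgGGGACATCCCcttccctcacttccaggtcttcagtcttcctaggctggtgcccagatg
Tlr3, chr8:45410331-45410630, minus strand: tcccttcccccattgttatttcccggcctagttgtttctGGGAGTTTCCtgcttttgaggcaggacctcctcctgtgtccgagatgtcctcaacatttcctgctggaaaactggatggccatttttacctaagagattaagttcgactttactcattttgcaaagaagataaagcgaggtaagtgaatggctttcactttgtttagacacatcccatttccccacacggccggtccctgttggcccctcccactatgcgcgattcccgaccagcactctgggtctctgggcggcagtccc
In Tlr2, 2 overlapping matches begin 173 and 172 bases before the start and another begins 8 bases before it. In Tlr3, 1 match begins 211 bases before the start. The 7 genes, which do not include Tlr4, Tlr7 and Cd14, have 9 promoters, and 2 of these 9 held such a match, against 4.51% of 32851 promoters of this length. The letters AANNGAAA, part of the binding site of interferon regulatory factors, were found on the strand opposite to the gene in 4 of the 9 promoters of these 7 genes, 1 each of Tlr1, Tlr2, Tlr3 and Tlr6, against 23.9% of all promoters searched on both strands. The other promoters of Tlr1 and Tlr6 held none. The letters GAGGAAG, a form of the binding site of the myeloid factor PU.1, were in 2 of the 9, 1 of Tlr1 and that of Tlr9, against 13.6% of all promoters. A match is a string of letters in this window and says nothing of whether a factor binds there.

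Tlr1 and Tlr6 encode the partners with which TLR2 recognises triacyl and diacyl lipopeptides. The level of Tlr1 was -1.51, -1.76, -2.24 and -2.35 on TAC replicates 1 to 4, against -3.25, -2.28, -2.35 and -2.45 on CTL replicates 1 to 4. TAC replicate 4 lay among the CTL arrays, TAC replicate 3 just above them, and CTL replicate 1 stood lowest. Tlr1 differed by 0.62 ± 0.26 (SE), 1.53-fold with a 95% interval of 1.01 to 2.33 (unadjusted p = 0.0454, adjusted p = 0.314, limma), and by 0.40 without CTL replicate 1 (unadjusted p = 0.103).
Tlr6 read -2.14, -2.46, -2.93 and -2.23 on TAC replicates 1 to 4, against -4.68, -2.54, -3.05 and -3.18 on CTL replicates 1 to 4. CTL replicate 1 was again the lowest array, and TAC replicate 3 lay below CTL replicate 2. The difference of Tlr6 was 0.92 ± 0.42 (adjusted p = 0.335, limma), with a 95% interval of the fold from 0.969 to 3.70, and it was 0.48 without CTL replicate 1.

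Tlr4 and Cd14 belong to the recognition of lipopolysaccharide. The level of Tlr4 was -2.48, -2.34, -2.69 and -2.65 on TAC replicates 1 to 4, against -3.01, -2.83, -2.80 and -2.94 on CTL replicates 1 to 4. The groups did not overlap, but the gap between the lowest TAC array and the highest CTL array was narrow. Tlr4 differed by 0.35 ± 0.11 (SE), 1.28-fold with a 95% interval of 1.08 to 1.51 (unadjusted p = 0.00930, adjusted p = 0.187, limma). A further Tlr4 probe, annotated to an Ensembl transcript, stayed in the background on all 8 arrays.
Cd14 read 1.47, 1.98, 1.43 and 0.81 on TAC replicates 1 to 4, against 0.45, 1.00, -0.09 and 0.82 on CTL replicates 1 to 4. TAC replicate 4 lay below CTL replicates 2 and 4, while the other 3 TAC arrays lay above every CTL array. The means were 1.42 ± 0.48 in TAC and 0.55 ± 0.48 in CTL (SD, n = 4 each), 1.83-fold with a 95% interval of 1.15 to 2.93 (unadjusted p = 0.0169, adjusted p = 0.230, limma). Without TAC replicate 4 and CTL replicate 2 together, the Cd14 difference was 1.23 in place of 0.88. Ly96, which encodes the MD-2 protein that binds lipopolysaccharide together with TLR4, differed by 0.12 ± 0.11 (adjusted p = 0.627, limma).

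Among the receptors of the endosome, Tlr3 was higher on every TAC array, while the Tlr9 probe and the brightest Tlr7 probe had differences near 0. TLR3 recognises the RNA of viruses and RNA released from dying cells. Its level was -3.32, -3.21, -3.62 and -3.07 on TAC replicates 1 to 4, against -3.66, -3.87, -3.96 and -3.83 on CTL replicates 1 to 4. The groups came close at TAC replicate 3 and CTL replicate 1. Tlr3 differed by 0.52 ± 0.13 (SE), 1.43-fold with a 95% interval of 1.16 to 1.77 (unadjusted p = 0.00386, adjusted p = 0.134, limma). With normexp background correction, here with an offset added to every signal, the difference was 0.30.
Tlr9, the receptor for unmethylated CpG DNA, read 1.64, 1.83, 1.96 and 1.64 on TAC replicates 1 to 4, against 1.79, 1.80, 2.05 and 1.85 on CTL replicates 1 to 4. The groups overlapped, and the difference of -0.10 ± 0.11 had a 95% interval of the fold from 0.783 to 1.11 (adjusted p = 0.670, limma).

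Tlr7, a receptor for guanosine-rich RNA, has 3 probes, and they did not behave alike. The brightest, at chrX:163742863-163742922 on mm9, read 0.29, 0.33, 0.31 and -0.25 on TAC replicates 1 to 4, against 0.34, 0.32, 0.22 and 0.12 on CTL replicates 1 to 4. These arrays lay close together apart from TAC replicate 4, and the difference was -0.08 ± 0.14 (SE; adjusted p = 0.810, limma). The further probe at chrX:163743146-163743205, annotated to the same transcript, read -2.66, -2.39, -2.84 and -3.13 on TAC replicates 1 to 4, against -3.37, -2.87, -3.80 and -3.79 on CTL replicates 1 to 4. Only TAC replicate 4 lay below the highest CTL array, CTL replicate 2. This probe differed by 0.70 ± 0.24 (unadjusted p = 0.0174 in the limma fit of all probes). The gap between the 2 probes on an array was 2.72 to 3.14 in TAC and 3.19 to 4.02 in CTL. The 2 probes thus differed in how they moved by -0.79 between the groups, with an exact two-sided permutation p of 0.0286, the smallest that 70 assignments of the arrays allow. This comparison of probes was chosen after their values were seen, and which of them reports the gene is not settled by the files. The third Tlr7 probe, annotated to 1 transcript variant, was well above background on TAC replicate 2 alone.

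**Figure D2:**
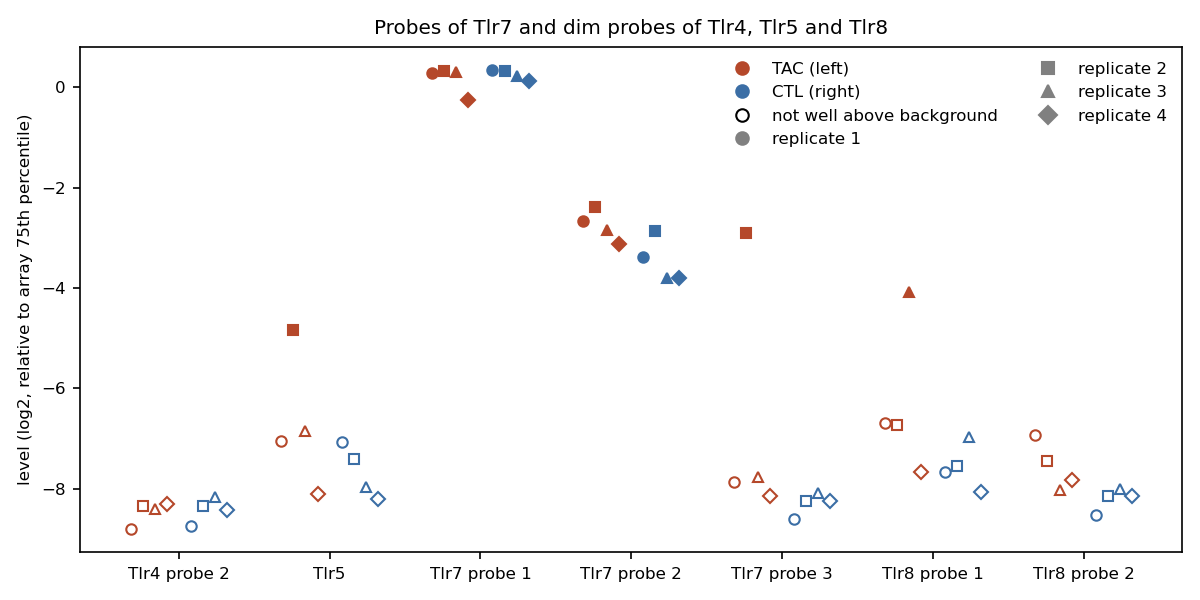
Level on each array (log2, relative to the array's 75th percentile) of the 3 Tlr7 probes and of the probes of Tlr4, Tlr5 and Tlr8 that were not tested, with TAC arrays left and CTL arrays right at each probe; open symbols are not well above background. The TAC and CTL arrays of Tlr7 probe 1 overlap, most TAC arrays of probe 2 lie above its CTL arrays, and the dim probes rise above background on at most 1 array.

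Tlr5 and Tlr8 were not tested because their probes were dim. Tlr5, the receptor for flagellin, was well above background on TAC replicate 2 alone, at -4.84, and between -8.10 and -6.86 on the other TAC arrays, against -8.21 to -7.08 on the CTL arrays. Tlr8, the neighbour of Tlr7 on the X chromosome and another receptor for RNA, had a probe well above background on TAC replicate 3 alone, at -4.07. Its other probe stayed in the background throughout. No fold is given for these genes, since no control array measured them.

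**Figure D3:**
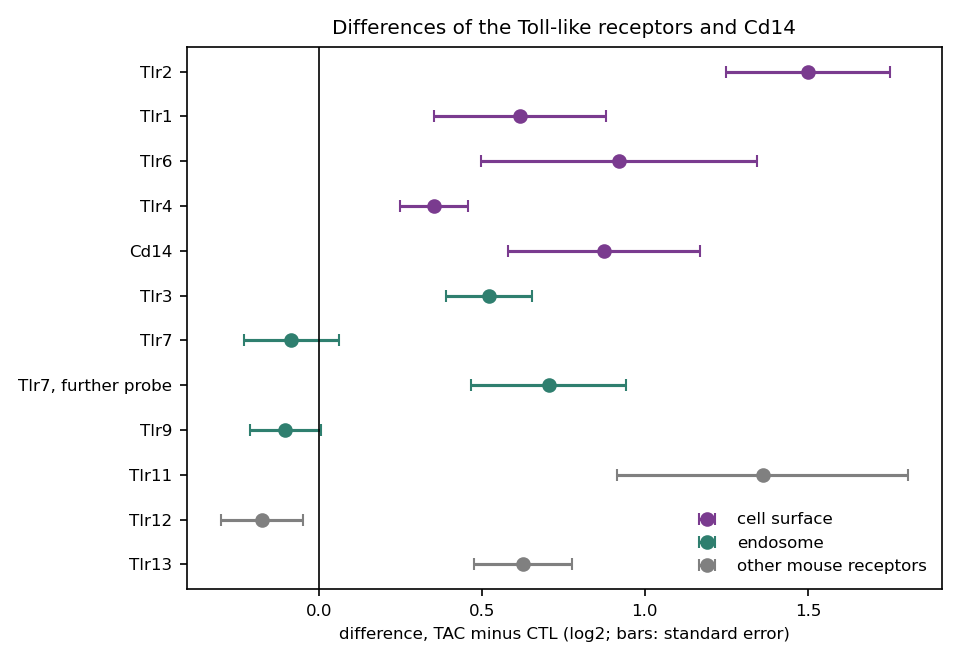
Difference between groups, TAC minus CTL (log2), with its standard error, for the tested genes by the place of the receptor in the cell, with the further Tlr7 probe and with Tlr11, Tlr12 and Tlr13. Tlr2 stands farthest right at 1.50, and Tlr9, Tlr12 and the brightest Tlr7 probe lie left of 0.

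Mice carry 3 more Toll-like receptors, which recognise protozoan profilin (TLR11 and TLR12) and bacterial ribosomal RNA (TLR13). Tlr13 read 0.35, 0.42, -0.21 and 0.02 on TAC replicates 1 to 4, against -0.44, -0.34, -0.60 and -0.53 on CTL replicates 1 to 4, so that the groups did not overlap. It differed by 0.63 ± 0.15 (SE; unadjusted p = 0.00286, adjusted p = 0.120, limma). Tlr11 differed by 1.36 ± 0.44, with 3 of the 4 CTL arrays well above background, and Tlr12 by -0.17 ± 0.12 (adjusted p = 0.222 and 0.514).

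The other genes of the pathway were taken from 6 lists that follow the route of the signal. Of 72 listed genes, including Tlr11 to Tlr13, 62 were tested. None passed over all genes (limma, adjusted p under 0.05), and the unadjusted p was under 0.05 for 20 on the higher and 2 on the lower side, which is 32.3% and 3.23% against 7.04% and 8.42% of all genes. The TAC arrays lay entirely above the CTL arrays in 8 of the 62, or 12.9%, and entirely below in 1, against 4.35% and 5.76% of all genes. The median difference of the 62 genes was 0.06, against -0.05 over all genes.

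Adaptors and proximal kinases had differences near 0. Of 16 tested, 1 was higher at an unadjusted p under 0.05 and none lower, and their median difference was -0.03. Myd88, the adaptor of every Toll-like receptor but TLR3, differed by -0.04 ± 0.09 (SE), Ticam1, which encodes the adaptor TRIF of TLR3 and TLR4, by 0.04 ± 0.11, and Traf6, a ubiquitin ligase downstream of MyD88, by -0.22 ± 0.23. Ikbke, a kinase of interferon regulatory factors, was the 1 gene, at 0.45 ± 0.16 (adjusted p = 0.248, limma). Map3k7, the TAK1 kinase, Irak2, a kinase that binds MyD88, and Tab2, a partner of TAK1, differed by -0.16, -0.12 and -0.09. Probes of Irak4, a kinase of the MyD88 complex, did not act alike, at 0.09 for the brightest and 0.42 for a further one (unadjusted p = 0.0176 in the limma fit of all probes).

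Co-receptors and trafficking proteins were mixed, with a median difference of -0.01 over 9 tested genes, of which 3 had an unadjusted p under 0.05, all on the higher side. Ly86, which encodes MD-1, the partner of the receptor RP105 of myeloid and B cells, read 1.89, 1.94, 1.36 and 1.10 on TAC replicates 1 to 4, against 0.42, 0.77, -0.21 and 0.25 on CTL replicates 1 to 4. The groups did not overlap, and Ly86 differed by 1.27 ± 0.25 (SE; adjusted p = 0.0751, limma), 2.41-fold. Cd180, which encodes RP105 itself, was well above background on 1 array and was not tested. Unc93b1, the chaperone that carries receptors to endosomes, differed by 0.57 ± 0.21, and Slc15a4, an endosomal transporter needed for TLR7 and TLR9 signals, by 0.36 ± 0.13 (adjusted p = 0.260 and 0.252). Hsp90b1, the chaperone gp96 that folds the receptors, differed by -0.24 ± 0.12.

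Among 10 tested inhibitors, the unadjusted p at the brightest probe was under 0.05 for 3 that were higher and 1 that was lower, with a median difference of 0.14. Irak3, the inactive kinase IRAK-M of macrophages, differed by 0.44 ± 0.12 (SE) and Tnfaip3, the A20 enzyme that ends NF-kB signals, by 0.75 ± 0.23, both with the TAC arrays entirely above the CTL arrays (adjusted p = 0.158 and 0.190, limma). Il1rl1, the interleukin-33 receptor ST2, differed by 0.83 ± 0.22. Sigirr, an inhibitory receptor of epithelium, was the lower gene: it read 3.40, 3.41, 3.49 and 3.40 on TAC replicates 1 to 4, against 3.58, 3.86, 3.89 and 3.65 on CTL replicates 1 to 4, without overlap. Its difference was -0.32 ± 0.10 (unadjusted p = 0.0102, adjusted p = 0.194, limma). Nlrx1 differed by 0.26 ± 0.21 at its brightest probe and by -0.28 ± 0.13 at a further one. Tollip differed by -0.11 ± 0.09 at its brightest probe and by -0.26 ± 0.10 and -0.11 ± 0.10 at further ones. In that order, the limma fit of all probes returned unadjusted p values of 0.0609, 0.0317 and 0.280 for the further probes.

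Genes of endogenous ligands of TLR2 and TLR4 had a median difference of 0.01 over 10 tested, with 3 higher at an unadjusted p under 0.05 and none lower. These 3, Dcn, Fn1 and Bgn, encode matrix proteins. Vcan, the matrix proteoglycan versican, differed by -0.25 ± 0.13 (SE) at its brightest probe and by 0.71 ± 0.18 at a further one (unadjusted p = 0.00350 in the limma fit of all probes). Dcn, the proteoglycan decorin, read 4.39, 4.59, 4.16 and 4.83 on TAC replicates 1 to 4, against 3.79, 3.77, 3.63 and 3.53 on CTL replicates 1 to 4, a difference of 0.81 ± 0.15 (SE; adjusted p = 0.0621, limma). Fn1, fibronectin, differed by 0.58 ± 0.20 and Bgn, biglycan, by 0.44 ± 0.18. Hmgb1, a nuclear protein released by dying cells, differed by 0.07 ± 0.21, and S100a8 and S100a9, the calprotectin subunits of neutrophils, by -0.58 ± 0.27 and -0.55 ± 0.35. Fgb, fibrinogen beta, read -7.40 to -1.76 on the TAC arrays and -8.13 to -3.10 on the CTL arrays and differed by 3.29 ± 1.53 (adjusted p = 0.340, limma). It was well above background on only 3 TAC arrays and 1 CTL array, so this difference rests partly on background signal.

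Genes that Toll-like receptor signals are known to induce had a median difference of 0.76 over 14 tested, with an unadjusted p under 0.05 for 8 that were higher and 1 that was lower. Among the higher ones, Acod1 and Tnf were well above background on only 2 and 3 of the 4 CTL arrays, so their differences rest partly on background signal. Cxcl1, a chemokine for neutrophils, read -0.77, -0.14, -1.31 and -1.84 on TAC replicates 1 to 4, against -3.07, -2.05, -3.31 and -3.81 on CTL replicates 1 to 4, a difference of 2.04 ± 0.44 (SE; adjusted p = 0.0948, limma). Nfkbiz and Nfkbia, NF-kB regulators that NF-kB itself induces, differed by 0.65 ± 0.21 and 0.37 ± 0.11, without overlap of the arrays (adjusted p = 0.215 and 0.198, limma). Cxcl10, an interferon-induced chemokine, differed by 1.55 ± 0.48 (adjusted p = 0.204) and by 0.995 ± 0.71 at a further probe (unadjusted p = 0.194, limma). The lower gene was Ptgs2, cyclooxygenase 2, at -1.20 ± 0.49 (adjusted p = 0.295, limma). Its signal was dim: it was well above background on 3 of the 4 TAC arrays. CTL replicate 1, at -5.47, lay among the TAC arrays, at -5.58 to -4.74. Il1b, a cytokine induced through MyD88, differed by 0.13 ± 0.21 (adjusted p = 0.795), and Ifnb1 and Il10 were too dim on all 8 arrays.

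**Figure D4:**
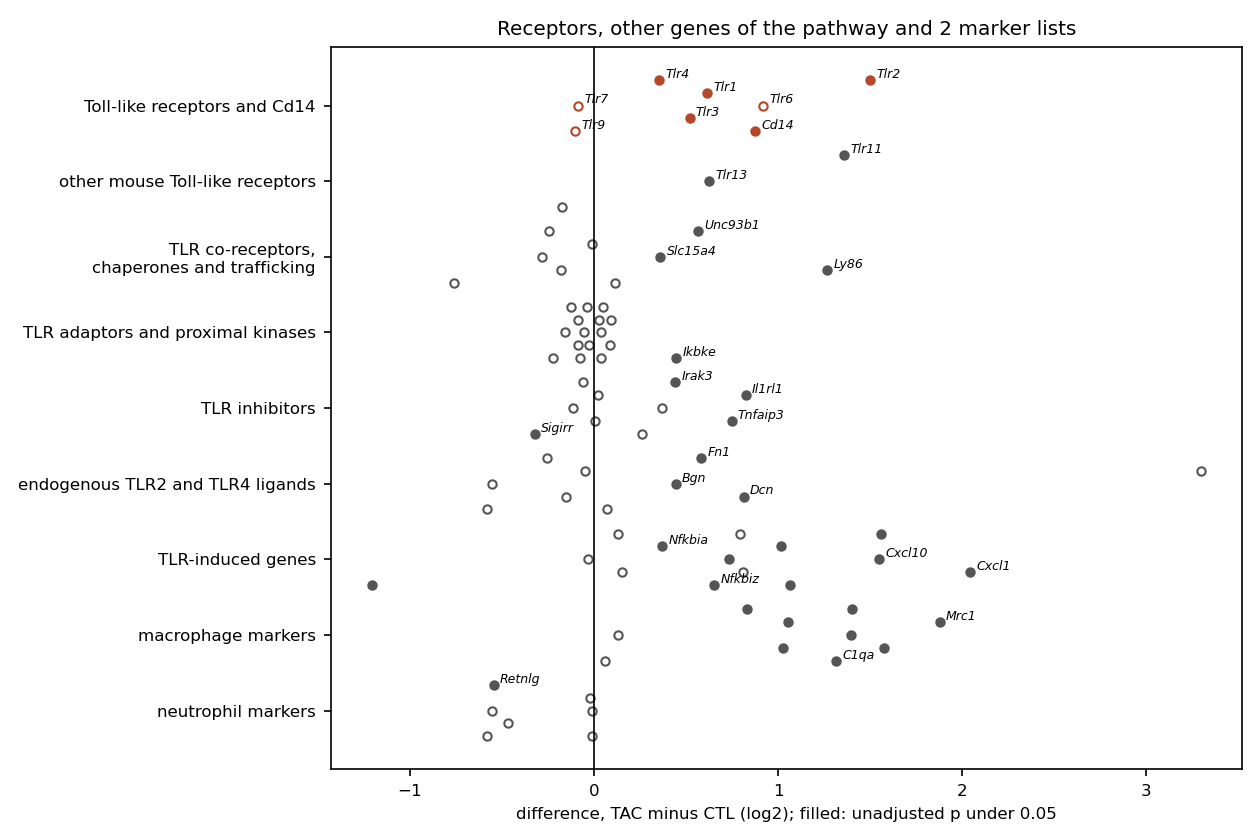
Difference between groups, TAC minus CTL (log2), of the tested receptors and Cd14 (top), of the tested genes in 6 pathway lists and of macrophage and neutrophil markers; filled points have an unadjusted p under 0.05. Adaptors and kinases gather near 0, TLR-induced genes and macrophage markers lie mostly to the right, and neutrophil markers lie at or left of 0.

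Of 10 macrophage markers tested, none passed over all genes (limma, adjusted p under 0.05). All 10 had a difference above 0, 8 were higher at an unadjusted p under 0.05 with TAC arrays entirely above CTL arrays, and the median difference was 1.19. Over all genes tested, 39.5% had a difference above 0, 7.04% were higher at that p and 4.35% had TAC arrays entirely above CTL arrays. Mrc1, the mannose receptor, read -0.55, 0.61, -0.86 and -0.45 on TAC replicates 1 to 4, against -1.93, -1.90, -2.60 and -2.34 on CTL replicates 1 to 4. C1qa, a chain of complement C1q, differed by 1.32 ± 0.24 (SE). Csf1r, the growth factor receptor of macrophages, and Mertk, a receptor for dying cells, differed by 0.06 ± 0.11 and 0.13 ± 0.11, and Cd163 was too dim on all 8 arrays. The summed linear level of the 10 markers was 41.3 to 53.1 on the TAC arrays and 32.6 to 41.4 on the CTL arrays; Csf1r alone gave 59.7% to 81.8% of it, and without Csf1r the sums were 11.7 to 20.5 in TAC and 5.94 to 9.46 in CTL. The part of macrophage RNA in the receptor differences was not tested.

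Markers of other leukocytes were less uniform. The counts here stand beside 7.04% of all genes tested that were higher and 8.42% that were lower at an unadjusted p under 0.05 (limma), and 39.5% with a difference above 0. Of 7 tested neutrophil markers none had a difference above 0, and the 1 with an unadjusted p under 0.05 was Retnlg, at -0.54 ± 0.19 (SE); without Csf3r, which gave 90.9% to 97.3% of the sum, their summed level was 2.74 to 10.1 in TAC and 5.70 to 11.1 in CTL. Of 7 dendritic cell markers, 3 on the higher and 1 on the lower side had an unadjusted p under 0.05, with Clec9a, a receptor for dead cells, at 1.91 ± 0.51 and Clec10a, a lectin, at 1.01 ± 0.35. Clec9a was well above background on only 3 of the 4 CTL arrays, so its difference rests partly on background signal. The marker on the lower side was Flt3, a growth factor receptor, at -0.94 ± 0.37, while a further Flt3 probe differed by 1.13 ± 0.25 (unadjusted p = 0.00170 in the limma fit of all probes). Without Siglech, which gave over 97.2% of that sum, the dendritic sums were 3.07 to 3.58 in TAC and 2.07 to 3.89 in CTL. The brightest probes of Siglech and Zbtb46 each stood at 0.03. Further probes gave 1.01 ± 0.31 and -0.21 ± 0.20 for Siglech, and 0.41 ± 0.14 for Zbtb46. In that order, the limma fit of all probes returned unadjusted p values of 0.01065, 0.329 and 0.0199. At the brightest probe, none of 6 tested B cell markers passed an unadjusted p of 0.05 (limma), with Fcrla at 0.58 ± 0.45 and Cr2 at -0.12 ± 0.15. A further Cr2 probe differed by -0.32 ± 0.11 (unadjusted p = 0.0156 in the limma fit of all probes). The B cell sums were 1.11 to 1.54 in TAC and 0.936 to 1.49 in CTL. No brightest probe of 6 endothelial, 5 urothelial or 9 kidney epithelial markers passed an unadjusted p of 0.05 (limma). Their median differences were -0.09, 1.00 and -0.14. Lrp2, a kidney epithelial marker, stood at -0.05 by its brightest probe, while its further probes gave -0.62 ± 0.17 and -0.21 ± 0.12. For these further probes, the limma fit of all probes returned unadjusted p values of 0.00584 and 0.120. The urothelial sum was 0.416 to 4.997 in TAC and 0.468 to 0.587 in CTL. Of 6 adipocyte markers 5 were higher at an unadjusted p under 0.05, with a median difference of 3.40, and none passed over all genes (limma). On the CTL arrays, Plin1 was well above background on 0 of 4, Adipoq on 1, Cidec on 2 and Retn on 3, while each was so on all 4 TAC arrays. Plin1 thus passed the filter through its TAC arrays alone, and the adipocyte differences rest partly on background signal.

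The genes whose levels ran closest to Tlr2 over the 8 arrays were Fgd2, Lyz1 and Ms4a6c, and those closest to Cd14 were Stx11, Pilra and Slamf9. Likeness was the root mean square difference of the levels after each gene was centred on its mean over the 8 arrays. It was 0.141 for Fgd2, an exchange factor of antigen-presenting cells, 0.178 for Lyz1, a lysozyme, and 0.181 for Ms4a6c, a membrane protein of myeloid cells, where Tlr2 itself spanned 2.62 from its lowest to its highest array. For Cd14, which spanned 2.06, it was 0.172 for Stx11, a syntaxin of vesicle fusion, 0.180 for Pilra, an inhibitory receptor of myeloid cells, and 0.183 for Slamf9, a surface receptor of the SLAM family. Fgd2, Lyz1 and Ms4a6c differed by 1.28 ± 0.23, 1.53 ± 0.26 and 1.41 ± 0.27 (SE), and Stx11, Pilra and Slamf9 by 0.98 ± 0.23, 0.73 ± 0.26 and 0.80 ± 0.23. These genes were chosen for their likeness to the member, which fixes the direction of their differences.

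**Figure D5:**
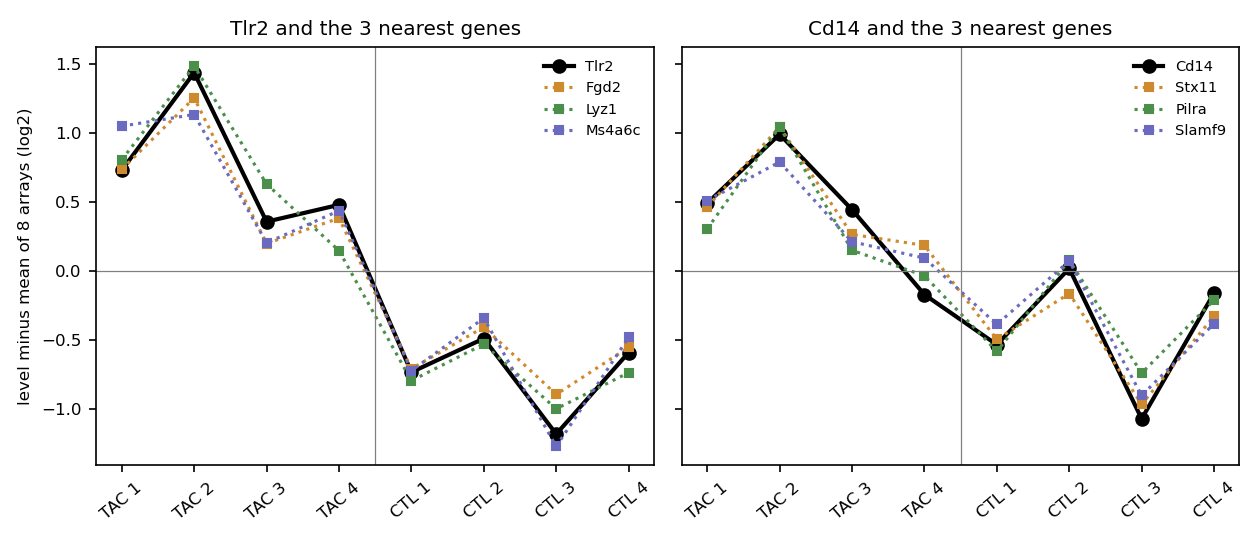
Level minus the mean of the 8 arrays (log2) for Tlr2 (left) and Cd14 (right), with the 3 genes of smallest root mean square difference from each; TAC arrays stand left and CTL arrays right of the vertical line. TAC replicate 2 is the highest array and CTL replicate 3 the lowest array for Tlr2 and for Cd14.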

How the data were processed

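Kidney RNA of 4 TAC and 4 CTL samples was read on 1-colour Agilent arrays. Per the file headers, the deposited intensity values were extracted with Agilent Feature Extraction 10.7.3.1; the processed intensity is background-subtracted and spatially detrended, with arrays not yet scaled to each other. A deposited table of the 8 arrays is in log2: median intensities with no background subtracted, quantile-normalized and then logged, matched its columns with a largest deviation of 5e-09, and their medians were 6.31, 6.31, 6.30 and 6.31 for TAC replicates 1 to 4 and 6.32, 6.31, 6.30 and 6.31 for CTL replicates 1 to 4. Of the authors' tools, the submitters' processing notes name limma, without settings here.

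Processed intensities were put on a log2 scale, each array's 75th percentile over 59305 non-control spots was subtracted, 147 to 194 outlier spots per array were left out and spots of a probe were averaged. Probes well above background on at least 4 of 8 arrays were kept (36489 of 55681), and the brightest probe stood for a gene. Symbols were updated through RefSeq (GRCm38.p6), which matched 28026 probes; positions of probes are as annotated by the manufacturer (mm9), and cross-hybridisation was not checked. The test was that of limma 3.58.1, run in R 4.3.3 (lmFit, eBayes, two-sided, Benjamini-Hochberg over 25124 genes, threshold 0.05), after a test on simulated data. Having only 4 arrays a group limits the precision.

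The genes and lists were chosen with earlier results of these data known. The text names all 10 genes, up to 4 genes of each pathway list and up to 2 of each leukocyte list by lowest p, and the 3 nearest genes to Cd14 and to the Toll-like receptor of lowest p. Myd88, Ticam1, Traf6, Irak4, Ly96, Hmgb1, S100a9, Cd180, Ptgs2, Il1b, Ifnb1, Il10, Csf1r, Mertk, Cd163, Csf3r, Siglech, Flt3, Vcan, Fabp4, Slc34a1 and Umod were named after their values were seen, for their place in the pathway or list. Plin1, Adipoq, Cidec, Retn, Acod1 and Tnf were also named after their values were seen, for dim signal. Lrp2, Zbtb46, Tollip and Nlrx1 were so named for their further probes. Alternatives were other normalizations, background correction, filters, probe rules, array weights, a replicate block and left-out arrays.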

Additional observations from a re-analysis of the deposited data

Results flagged for a closer look

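In groups of 4 arrays, an array was singled out when its gap to the nearest other array was a larger part of the range of the group than Dixon's 95% critical value. Of 102 groups checked, over the member probes and the named genes, 7 held such an array, where chance gives about 1 in 20, or 5.10.

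For the brightest Tlr7 probe, TAC replicate 4 lay at -0.25, with the other TAC arrays at 0.29 to 0.33. For the Tlr7 probe annotated to 1 transcript variant, TAC replicate 2 lay at -2.90, with the other TAC arrays at -8.16 to -7.76. TAC replicate 4 also stood apart for Tab2, at 1.91 against 1.68 to 1.71 on the other TAC arrays, and for Fn1, at 3.26 against 3.62 to 3.64. For Fgb, TAC replicate 3 lay at -7.40 with the other TAC arrays at -2.46 to -1.76, and CTL replicate 4 lay at -3.10 with the other CTL arrays at -8.13 to -7.46. For Clec9a, CTL replicate 3 lay at -5.87, with the other CTL arrays at -4.25 to -3.95.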

How the results depend on the processing

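The 8 tested genes kept their direction under all 18 alternatives, except Tlr7. Tlr7 differed by 0.31 with the mean of its probes, by -0.14 to 0.06 with each array left out (0.057 without TAC replicate 4) and by 0.080 without TAC replicate 4 and CTL replicate 2 together. Tlr2, Tlr3, Tlr4 and Cd14 stayed under an unadjusted p of 0.05 (limma) in each of the 18, and Tlr1 in 10 and Tlr6 in 4 of them. The count of members called went to 1, in each case Tlr2, with normexp (adjusted p = 0.0296), the deposited table (0.0440), probes well above background on all 8 arrays (0.0453), array weights (0.0383) and the replicate block (0.0445), within a range of 0.0296 to 0.145 (limma); the cause was not tested. The members under an unadjusted p of 0.05 numbered 4 to 6. The count of pathway genes called went to 3 with normexp (Ly86, Cxcl1 and Dcn), 2 with the deposited table and with array weights (Ly86 and Dcn in each) and 1 with the replicate block (Cxcl1).

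Of all genes tested, 57 were called, and 286 with normexp, 183 with the deposited table, 32 with no filter on dim probes, 151 with probes well above background on all 8 arrays, 37 with every probe tested, 309 with array weights, 103 with the replicate block and 8 without TAC replicate 4 and CTL replicate 2 together. With each array left out the count was 7 to 56: it was 18, 22 and 33 without TAC replicates 1, 2 and 3, and 7, 13 and 13 without CTL replicates 2, 3 and 4. No member was called without any 1 array (limma, 4 to 6 under an unadjusted p of 0.05). The replicate numbers were not taken as pairs: the deviations of same-numbered arrays from their group means correlated across genes at 0.16, 0.02, 0.14 and 0.06 for numbers 1 to 4. Every TAC array correlated best with the CTL array of its own number except TAC replicate 2. Dim signal limits Tlr5, Tlr8 and the further probe of Tlr4.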
